A study of Rattus norvegicus with 25 samples.

Results

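The miR-1 and miR-206 family of muscle microRNAs was described in small RNA libraries of mitochondria from rat red gastrocnemius, an oxidative hindlimb muscle. Its members were taken by name, as the 5 entries rno-miR-1-3p, rno-miR-1b, rno-miR-206-3p, rno-miR-206-5p and rno-miR-3571 of the 764 mature rat miRNAs listed, and are written below without the species prefix. 260 of the 764 had at least 1 count. The rats were male Wistar-Kyoto rats that arrived at 4 weeks of age and entered the study at 5 weeks. The 13 trained libraries came from rats given endurance training, treadmill running for 4 weeks and on 5 days in each, and the 12 sedentary libraries from rats placed on a treadmill that stood still. A library is named by its group and the number in its title, and the labels mention no pooling of animals. All 25 libraries came from mitochondria treated with RNase A, which digests RNA outside the organelle, and none came from whole muscle or untreated mitochondria. How far the counts stand for RNA within the organelle was not tested.

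MiRNAs are short RNAs that pair with messenger RNAs mainly through their seed, bases 2 to 8, and lower the output of those messengers. miR-1 is made in heart and skeletal muscle and miR-206 in skeletal muscle, under the myogenic factors that switch on muscle genes, and both favour differentiation of myoblasts over their proliferation. In mouse muscle cells miR-1 has also been described inside mitochondria, where it promoted translation of mitochondrial transcripts.

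4 of the 5 members have a mature sequence in the RefSeq table of the rat assembly GRCr8. They are shown because the counts of some members can be read only against their sequences. Capitals mark the seed, and sequences run 5′ to 3′.
miR-1-3p: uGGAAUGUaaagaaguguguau
miR-1b: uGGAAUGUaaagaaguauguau
miR-206-3p: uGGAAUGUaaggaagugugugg
miR-3571: uACACACUucuuuacauuccaua

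miR-1-3p, miR-1b and miR-206-3p carry the same seed, and no other of the 693 mature miRNAs in that table carries it. Counted from 1 at the 5′ end of miR-1-3p, miR-1b differs from it only by G17A. miR-206-3p differs from miR-1-3p by A11G, A21G and U22G. All 4 differences lie outside the seed. Below, capitals mark the bases that differ from miR-1-3p.
miR-1b: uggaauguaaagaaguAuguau
miR-206-3p: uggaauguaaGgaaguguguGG

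miR-3571 is different in kind. It is annotated on the strand opposite miR-1-3p, and its seed is not that of the family. Its reverse complement, with the bases shared with miR-1-3p in capitals, holds 21 of the 22 bases of miR-1-3p without a mismatch, against 20 of 21 overlapping bases for miR-1b and 19 of 21 for miR-206-3p.
miR-3571, reverse complement: uaUGGAAUGUAAAGAAGUGUGUA

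The precursor hairpins show the same overlap. Capitals mark the mature miRNA, and the Mir1 hairpin lies whole, over 87 bases, within the Mir3571 hairpin on the opposite strand.
Mir1: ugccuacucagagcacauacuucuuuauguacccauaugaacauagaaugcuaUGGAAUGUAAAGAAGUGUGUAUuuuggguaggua
Mir3571: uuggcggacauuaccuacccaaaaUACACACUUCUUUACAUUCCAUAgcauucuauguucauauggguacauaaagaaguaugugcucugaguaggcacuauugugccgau

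In the GRCr8 annotation Mir1 and Mir3571 are on chromosome 18 within the span of Mib1, which encodes a ubiquitin ligase of Notch signalling, and next to the Mir133a1 precursor. Mir1b is on chromosome 3. Mir206 is on chromosome 9, within a long non-coding RNA and next to Mir133b. Since the sources used here do not give the build behind the counts, no positions are printed.

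Library totals ran from 26793 to 202388 counts for trained rats and from 12181 to 186006 for sedentary rats. miR-133a-3p, a muscle marker, had a count in 22 of 25 libraries. Of the slow-muscle and heart markers, miR-208a-3p and miR-208b-3p were listed at 0 throughout, and 5 libraries had a count of miR-499-5p. The red-cell list, 1 of 3 markers with a count, held 1.01% to 5.27% of counts in trained and 1.00% to 4.75% in sedentary libraries, all from miR-486, which muscle also makes. Its defining markers miR-451-5p and miR-144-3p were at 0. The leukocyte list, 3 of 6 markers with a count and miR-146a-5p the highest, held 0% to 0.419% in trained and 0.00131% to 0.517% in sedentary libraries, with miR-142-3p, miR-155-5p and miR-223-3p at 0. The smooth muscle list, 2 of 2 markers with a count, held 0.805% to 3.41% of counts in trained and 0.828% to 5.49% in sedentary libraries. The endothelial list, 3 of 4 markers with a count, held 0.161% to 1.11% in trained and 0.256% to 1.92% in sedentary libraries. The connective tissue list, 4 of 4 markers with a count, held 0.0531% to 0.870% in trained and 0.0161% to 1.61% in sedentary libraries. The liver marker miR-122-5p had a count in 18 of 25 libraries, at up to 0.560% in trained and 0.429% in sedentary libraries. Of the brain markers, miR-124-3p was at 0 and miR-9a-5p had a count in 5 libraries. The part of other cells in the values below was not tested. In such preparations fewer cells of a type and less RNA per cell cannot be told apart.

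The 3 seed-sharing members together held 26.5% ± 7.24 of all counts (SD, n = 25). miR-1-3p held 10.6% ± 4.13, miR-1b 8.28% ± 2.40 and miR-206-3p 7.56% ± 3.69 of library counts (SD, n = 25). Library totals include entries that nearly repeat the counts of another entry, miR-3571 among them. Such repeats held 20.9% ± 2.88 of library counts (SD, n = 25), so each share would be higher with repeats counted once. miR-1-3p was the entry with most counts in 13 libraries, miR-1b in 4, miR-206-3p in 2, and miR-3571 tied with miR-1-3p for that place in 3 sedentary libraries. At worst, miR-1-3p ranked 6 among all entries of a library, and miR-1b and miR-206-3p ranked 9. All 3 were therefore among the entries with most counts in every library, while both their summed share and its division among them varied.

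**Figure D1:**
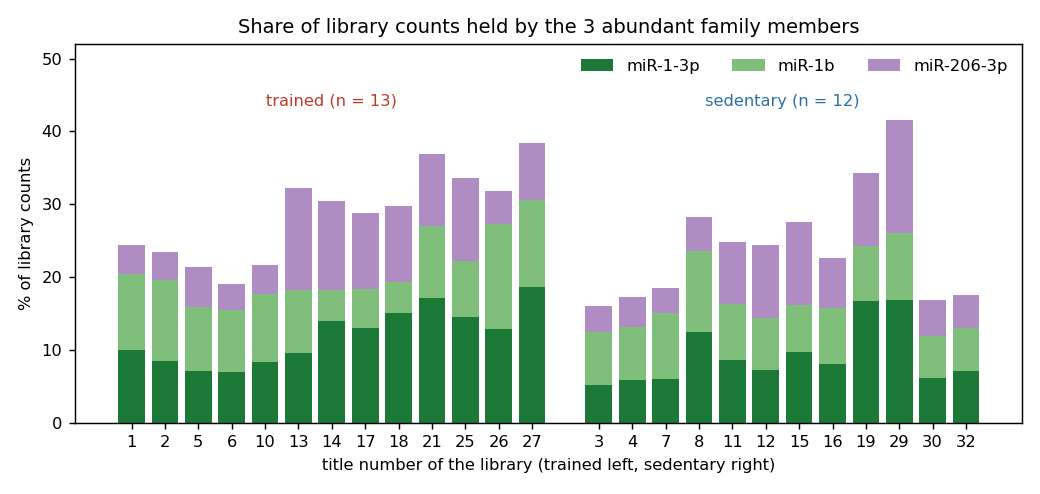
Stacked bars give the percent of each library's counts (y axis) held by miR-1-3p, miR-1b and miR-206-3p, with 1 bar per library by title number, trained left and sedentary right. The 3 members summed to between 16.0% in sedentary library 3 and 41.6% in sedentary library 29.

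miR-206-5p, the opposite arm of the miR-206 precursor, had 0 counts in all 25 libraries. Over the 2094773 counts of the table this allows up to 3 counts, or 1.43 CPM (counts scaled to a common library total). miR-206-3p had 161329 counts. In a single library, 3 counts are 0.00148% to 0.0246% of the total, so the limit there is higher. The opposite arm of miR-1, miR-1-5p, also had 0 counts. The sources used here do not say whether entries were filtered before deposit, and a 0 is read only as the listed value. Limits and intervals on counts cover counting error only.

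miR-3571 repeated the counts of miR-1-3p. Summed over libraries it had 241335 counts, against 241423 for miR-1-3p, a difference of 88. In 4 libraries the counts were equal, and in the other 21 miR-3571 was lower, by at most 16 counts or 0.180%. From miR-1b, which its reverse complement matches in all overlapping bases but 1, the count of miR-3571 differed by 0.747% to 251% of miR-1b. The counts of miR-3571 thus followed the strand partner and not its near-copy.

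The same held for most other strand partners with at least 100 counts. Among listed miRNAs, 44 pairs lie on opposite strands with at least 15 overlapping bases. Of these, 15 pairs had at least 100 counts in either entry. The pair of miR-3571 and miR-1-3p is included in these numbers and in those that follow. 13 of the 15 had totals within 10% of each other. 11 stayed within 10% in each single library with at least 10 counts for the pair, over at least 3 libraries. The sources used here do not give the strand setting of the counting. Reads from the strands of Mir1 and Mir3571 cannot be told apart, so miR-3571 is reported as uncertain and is left out of the family sums. It stays in the library totals.

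The first question was how the members stood to each other within a library, a measure that needs no scaling between libraries. The lowest ratio of miR-1b over miR-1-3p was 0.285, in trained library 18, with 3147 counts of miR-1b and 11035 of miR-1-3p. The highest was 1.54, in sedentary library 7, with 17038 counts of miR-1b and 11083 of miR-1-3p. The ratio thus spanned 5.39-fold between entries that differ by 1 base.

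For miR-206-3p over miR-1-3p the ratio went from 0.350 in trained library 26 to 1.47 in trained library 13, a span of 4.19-fold. miR-206-3p over miR-1b had the widest span, 9.15-fold, from 0.310 in trained library 26 to 2.84 in trained library 14. The SD over 25 libraries was 0.67 for the log2 ratio of miR-1b over miR-1-3p, 0.55 for miR-206-3p over miR-1-3p and 0.96 for miR-206-3p over miR-1b. Counting error of a single library's log2 ratio was at most 0.063, and the rest of that spread, between animals or between preparations, cannot be told apart. The sources used here do not say whether a read with a mismatch could be counted for more than 1 of these entries. Entries from different loci could carry nearly the same counts. miR-133a-3p had 3645 and miR-133b-3p 3632, from precursors beside Mir1 and Mir206. Whether miR-1-3p, miR-1b and miR-206-3p share reads was not tested, and their ratios and relations depend on it.

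The member with most counts of the 3 changed with the title number of the library. miR-1b led in 6 of 13 trained and 3 of 12 sedentary libraries, miR-1-3p in 6 and 7, and miR-206-3p in 1 and 2. Among libraries numbered up to 13, miR-1-3p led in 0 of 6 trained and 2 of 6 sedentary libraries. Among those numbered above 13 it led in 6 of 7 trained and 5 of 6 sedentary libraries.

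**Figure D2:**
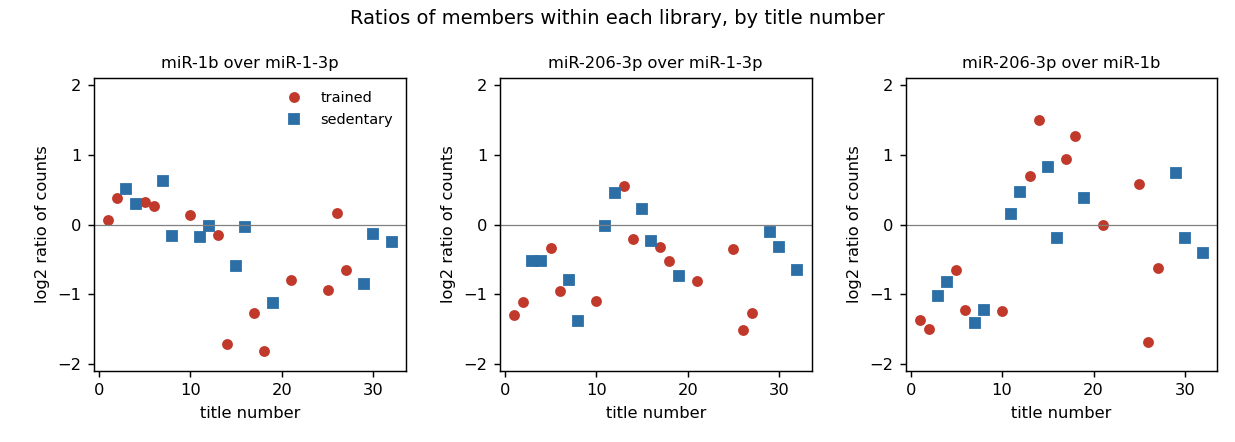
Each point is 1 library, trained as circles and sedentary as squares, with the title number on the x axis and the log2 ratio of counts of a pair of members on the y axis. The 9 libraries numbered 1 to 10 had log2 ratios of miR-206-3p over miR-1b from -1.50 to -0.65, in trained and sedentary rats alike, the 9 numbered 11 to 19 had -0.20 to 1.51, and the 7 numbered 21 to 32 spread from -1.69 to 0.75.

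Relations with the title number were looked at after the data were seen. miR-1b over miR-1-3p was lower at higher numbers (Spearman's rho = -0.66, permutation p = 0.00045, adjusted p = 0.0027; Pearson's r = -0.49, permutation p = 0.0122, adjusted p = 0.0440; n = 25, 6 relations). Without sedentary libraries 30 and 32, which lie farthest from the median number, r was -0.61. Within groups, r was -0.50 in trained and -0.60 in sedentary libraries. It was -0.61 among numbers up to 13 and 0.51 above 13, so the lower values at higher numbers did not continue through the upper range.

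Of the shares behind that ratio, that of miR-1-3p passed the test and that of miR-1b did not. The log2 share of miR-1-3p was higher at higher numbers (rho = 0.51, permutation p = 0.00933, adjusted p = 0.0187; r = 0.48, permutation p = 0.0147, adjusted p = 0.0440; n = 25), with r = 0.79 without libraries 30 and 32. That of miR-206-3p was also higher (rho = 0.53, permutation p = 0.00675, adjusted p = 0.0187), although its Pearson's r of 0.44 missed the threshold after adjustment (permutation p = 0.0267, adjusted p = 0.0535), with r = 0.66 without those libraries. For the log2 share of miR-1b, rho was -0.19 and r was -0.14 (adjusted permutation p = 0.422 and 0.610), with r = 0.028 without those libraries. Inside the upper range the signs of r were the other way, at -0.19 for miR-1-3p and -0.49 for miR-206-3p.

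For the remaining ratios, miR-206-3p over miR-1b had rho = 0.47 (adjusted permutation p = 0.0296) and r = 0.39 (adjusted permutation p = 0.0771), with r = 0.47 without those libraries. miR-206-3p over miR-1-3p had rho = 0.15 and r = 0.085 (adjusted permutation p = 0.474 and 0.686), with r = 0.080 without them. Both relations had opposite signs in the lower and upper range. For miR-206-3p over miR-1b, r was 0.75 among numbers up to 13 and -0.56 above 13. For miR-206-3p over miR-1-3p, r was 0.64 and -0.38. The labels do not say what the number stands for, and neither a batch nor a date is given. Depth differed between the number ranges in trained libraries. Totals were 26793 to 43510 in trained libraries numbered up to 13 and 72553 to 202388 in those above, against 30527 to 186006 and 12181 to 106661 in sedentary libraries. Among trained libraries number and depth cannot be told apart.

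Over all libraries, relations of depth with the shares did not pass the test. Between log2 total count and log2 share, rho was 0.22 for miR-1-3p, 0.010 for miR-1b and 0.12 for miR-206-3p (n = 25, lowest adjusted permutation p = 0.428 over 6 relations), and r was 0.19, -0.00078 and 0.13 (lowest adjusted permutation p = 0.531). Without sedentary library 19 and trained library 27, r was 0.31, -0.13 and 0.23. For miR-1-3p, r was 0.90 within trained and -0.46 within sedentary libraries.

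The next question was which members varied together. miR-1-3p and miR-206-3p were high in the same libraries. On log2 CPM, the abundance per library after TMM scaling, rho was 0.87 and r was 0.86 (n = 25, both permutation p = 1e-05, the smallest that 100000 resamples can give, adjusted p = 6e-05 over 6 relations), and r was 0.86 without trained libraries 21 and 27. On log2 percent of the library, rho was 0.65 (adjusted permutation p = 0.00366) and r was 0.65 (adjusted permutation p = 0.0039), 0.64 without trained library 27 and sedentary library 3. Within groups, r on log2 CPM was 0.86 in trained and 0.88 in sedentary libraries, and within ranges 0.67 for numbers up to 13 and 0.89 above. On log2 percent it was 0.62 in trained and 0.73 in sedentary libraries, and 0.33 for numbers up to 13 and 0.64 above, so it was positive throughout but weaker on this scale, most of all up to 13.

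For miR-1b the relations depended on the scale. With miR-1-3p its rho was 0.69 on log2 CPM (r = 0.71, 0.63 without trained libraries 21 and 27, adjusted permutation p = 0.00054 and 0.00027), but 0.19 on log2 percent (r = 0.098, -0.018 without trained library 27 and sedentary library 3, adjusted permutation p = 0.532 and 0.770). On log2 percent that r was -0.18 in trained and 0.45 in sedentary libraries, and 0.67 for numbers up to 13 and 0.33 above, so it was higher within either range than over all libraries. With miR-206-3p, rho was 0.49 on log2 CPM (r = 0.47, 0.40 without trained libraries 21 and 27, adjusted permutation p = 0.0266 and 0.0355) and -0.37 on log2 percent (r = -0.36, -0.24 without trained libraries 14 and 26, adjusted permutation p = 0.204 and 0.243). For miR-1b with miR-206-3p, r on log2 percent was -0.59 in trained and 0.036 in sedentary libraries. By range it was -0.31 for numbers up to 13 and -0.23 above. On log2 CPM, r for this pair was 0.21 in trained and 0.69 in sedentary libraries. Within a library all values share a scaling factor on the CPM scale and a fixed sum on the percent scale. Neither scale is therefore free of built-in relations.

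**Figure D3:**
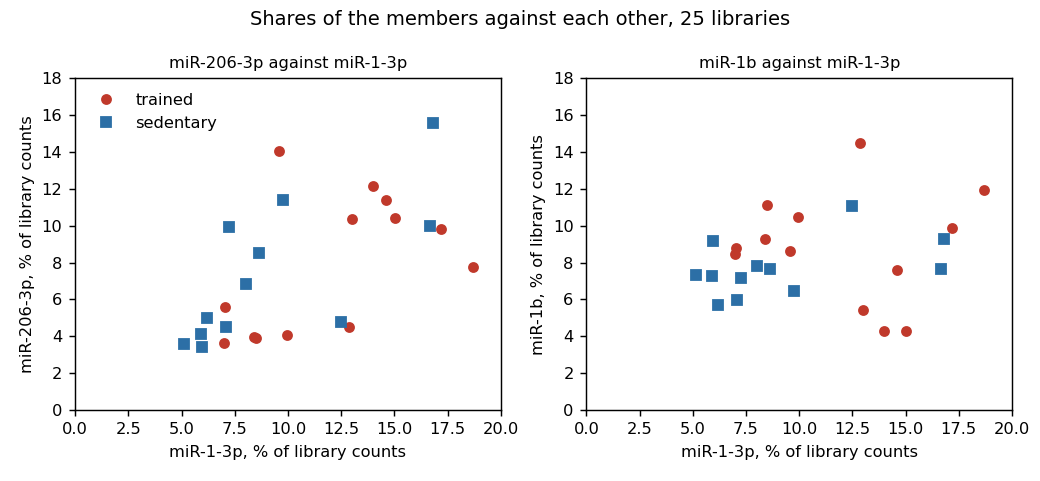
Each point is 1 library, trained as circles and sedentary as squares, with the percent of counts of miR-1-3p on the x axis and of miR-206-3p (left) or miR-1b (right) on the y axis. miR-206-3p was mostly high where miR-1-3p was high (rho = 0.65), while for miR-1b rho over all libraries was 0.19.

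The miRNAs most like the members were looked for among the other 72 miRNAs with enough counts, by Spearman's rho of log2 CPM over the 25 libraries. For miR-1-3p these were let-7i-5p (rho = 0.74), let-7a-5p (rho = 0.70) and miR-128-3p (rho = 0.64), with adjusted permutation p of 0.00216, 0.0036 and 0.00833. Pearson's r was 0.77, 0.64 and 0.56 (adjusted permutation p = 0.00072, 0.00331 and 0.0150), and 0.74, 0.62 and 0.53 without trained libraries 21 and 27. 7 of the 72, or 9.72%, passed with a positive rho and 7 with a negative rho, and the median rho was -0.15. For miR-206-3p the same 3 entries led, let-7a-5p with rho = 0.71, let-7i-5p with 0.68 and miR-128-3p with 0.61 (adjusted permutation p = 0.00432, 0.00432 and 0.0116), where 5, or 6.94%, passed with a positive rho and 9 with a negative rho. Their r was 0.60, 0.64 and 0.41 (adjusted permutation p = 0.00702, 0.00702 and 0.144), and 0.63, 0.58 and 0.34 without the 2 libraries farthest from the median of miR-206-3p. For miR-1b the highest were let-7i-5p, let-7a-5p and let-7g-5p, with rho of 0.54, 0.52 and 0.51, and none of the 72 passed (0%, adjusted permutation p = 0.114 each). Their r was 0.57, 0.40 and 0.52 (adjusted permutation p = 0.0770, 0.225 and 0.112), and 0.50, 0.34 and 0.50 without the 2 libraries farthest from the median of miR-1b. On the authors' normalized values, rho for these entries with miR-1b was lower, at 0.25, 0.29 and 0.13. In the orders given above, it was 0.62, 0.60 and 0.58 with miR-1-3p and 0.58, 0.51 and 0.50 with miR-206-3p. let-7a-5p has the same counts as its strand partner miR-3596a and is uncertain to that extent. The let-7 miRNAs restrain proliferation and are found in most differentiated tissues.

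The main comparison asked whether the members differed after training. miR-1-3p held 7.00% to 18.7% of counts in trained libraries, with a median of 12.8%, and 5.13% to 16.8% in sedentary libraries, with a median of 7.63%. The ranges overlapped over most of their length, and 11 of 13 trained libraries lay above the sedentary median. The means were 12.0% ± 3.85 in trained and 9.15% ± 4.06 in sedentary libraries (SD, n = 13 and 12). The difference of 2.83 percentage points (SE 1.59, 95% interval -0.45 to 6.11) did not pass the test (permutation test, two-sided, p = 0.0868, with an adjusted p of 0.341 over 7 shares and ratios).

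miR-1b held 4.27% to 14.5% in trained libraries, with a median of 8.80%, and 5.67% to 11.1% in sedentary libraries, with a median of 7.48%. The trained values spread on both sides of the sedentary range. The means were 8.81% ± 2.97 in trained and 7.70% ± 1.52 in sedentary libraries (SD, n = 13 and 12), with a difference of 1.11 percentage points (SE 0.93, 95% interval -0.85 to 3.06, permutation p = 0.259, adjusted p = 0.388).

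miR-206-3p held 3.61% to 14.0% in trained libraries, with a median of 7.76%, and 3.43% to 15.6% in sedentary libraries, with a median of 5.89%. The groups covered nearly the same range. The means were 7.81% ± 3.71 in trained and 7.29% ± 3.81 in sedentary libraries (SD, n = 13 and 12), and the difference of 0.51 percentage points (SE 1.51, 95% interval -2.60 to 3.63) did not pass (permutation p = 0.734, adjusted p = 0.856). It went to -0.0050 without trained library 13, which had the highest trained share, and to 1.27 without sedentary library 29, which had the highest of all.

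Together the 3 members held 19.1% to 38.4% of counts in trained and 16.0% to 41.6% in sedentary libraries. The means were 28.6% ± 6.13 in trained and 24.2% ± 7.88 in sedentary libraries (SD, n = 13 and 12). Their difference of 4.45 percentage points (SE 2.84, 95% interval -1.46 to 10.4) did not pass either (permutation p = 0.125, adjusted p = 0.341).

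Differences in the division of counts among the members did not pass the test either. The log2 ratio of miR-1b over miR-1-3p went from -1.81 to 0.39 with a median of -0.15 in trained libraries, and from -1.12 to 0.62 with a median of -0.15 in sedentary libraries. The medians were alike and the lowest values were trained. The mean was -0.46 ± 0.79 in trained and -0.16 ± 0.52 in sedentary libraries (SD, n = 13 and 12), a difference of -0.30 (SE 0.26, 95% interval -0.85 to 0.25, permutation p = 0.277, adjusted p = 0.388). The log2 ratio of miR-206-3p over miR-1-3p went from -1.52 to 0.55 with a median of -0.80 in trained libraries, and from -1.39 to 0.45 with a median of -0.42 in sedentary libraries, nearly the same range. The mean was -0.71 ± 0.58 in trained and -0.39 ± 0.50 in sedentary libraries, a difference of -0.33 (SE 0.21, 95% interval -0.77 to 0.12, permutation p = 0.146, adjusted p = 0.341). For miR-206-3p over miR-1b the log2 ratio went from -1.69 to 1.51 with a median of -0.62 in trained libraries, and from -1.42 to 0.82 with a median of -0.19 in sedentary libraries, so the trained values enclosed the sedentary ones. The mean was -0.25 ± 1.14 in trained and -0.23 ± 0.77 in sedentary libraries, a difference of -0.028 (SE 0.39, 95% interval -0.83 to 0.78, permutation p = 0.943, adjusted p = 0.943). Of the summed counts of the 3 members, miR-1-3p was 41.2% ± 6.26 in trained and 37.0% ± 5.43 in sedentary libraries, miR-1b 32.2% ± 12.4 in trained and 33.9% ± 8.95 in sedentary libraries, and miR-206-3p 26.6% ± 10.0 in trained and 29.1% ± 8.15 in sedentary libraries (SD, n = 13 and 12). On a linear scale the 3 intervals of the ratios run from 0.556 to 1.19-fold, 0.586 to 1.09-fold and 0.562 to 1.71-fold, trained over sedentary.

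**Figure D4:**
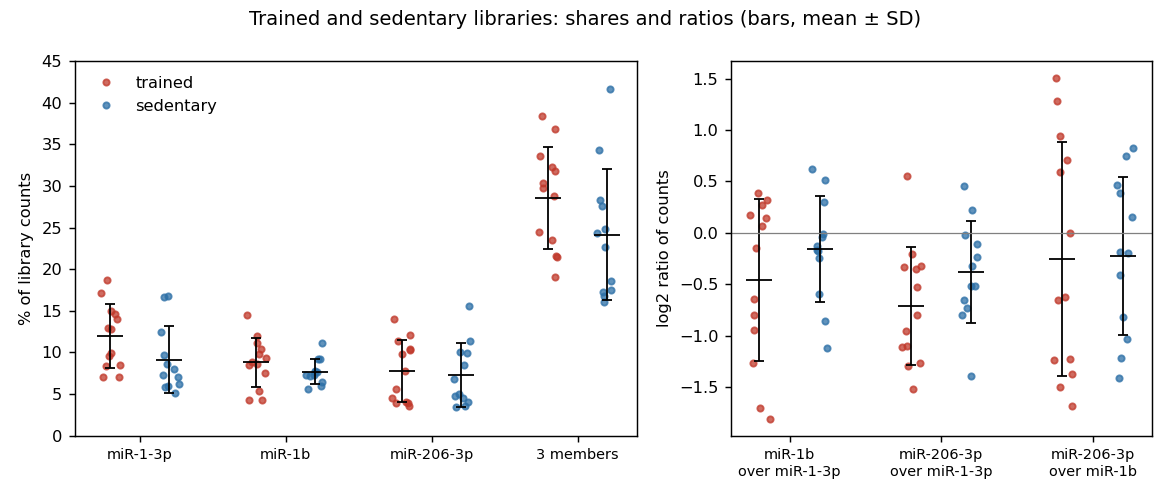
Points are libraries, trained left of sedentary for each measure, with the mean and SD as black bars. The left panel gives percent of library counts and the right panel the log2 ratio of counts within a library. In each measure the trained and sedentary points overlap, and the mean share of miR-1-3p was 12.0% in trained and 9.15% in sedentary libraries.

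In the test across all miRNAs, 4 of the 5 members had enough counts, and miR-206-5p at 0 did not. 0 of the 4 passed (edgeR quasi-likelihood test, Benjamini-Hochberg adjusted p under 0.05), as did 0% of the 76 miRNAs tested. At an unadjusted p under 0.05 there was 1 of the 76, or 1.32%, and it was miR-148a-3p, which is no member. DESeq2 also passed 0 of 260 (0%), with 8, or 3.08%, at an unadjusted p under 0.05. limma passed 0 of 76, with 14, or 18.4%, at an unadjusted p under 0.05 with voom weights and 8, or 10.5%, on the authors' normalized values, miR-1-3p among them in each of these 3 fits. Scaled by TMM, miR-1-3p averaged 148197 ± 81282 CPM in trained and 97755 ± 70858 CPM in sedentary libraries, miR-1b 99204 ± 41571 CPM in trained and 78684 ± 38879 CPM in sedentary libraries, and miR-206-3p 97818 ± 60893 CPM in trained and 79591 ± 67262 CPM in sedentary libraries (SD, n = 13 and 12). The log2 fold change, trained minus sedentary, was 0.60 for miR-1-3p (SE 0.36, edgeR p = 0.0994, adjusted p = 0.916), 0.33 for miR-1b (SE 0.30, p = 0.270, adjusted p = 0.916) and 0.30 for miR-206-3p (SE 0.38, p = 0.433, adjusted p = 0.971). With the title number as a covariate that of miR-1-3p was 0.54 (edgeR adjusted p = 0.802), and with log2 total count 0.42 (edgeR adjusted p = 0.762). That of miR-3571, from the same counts as miR-1-3p, was 0.60. The 3 seed-sharing members were all positive with a median of 0.33, while 37 of all 76, or 48.7%, were positive with a median of -0.0081. With no filter on low counts miR-1-3p passed at 0.73 (edgeR adjusted p = 0.00758), where 25.4% of 260 miRNAs passed.

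**Figure D5:**
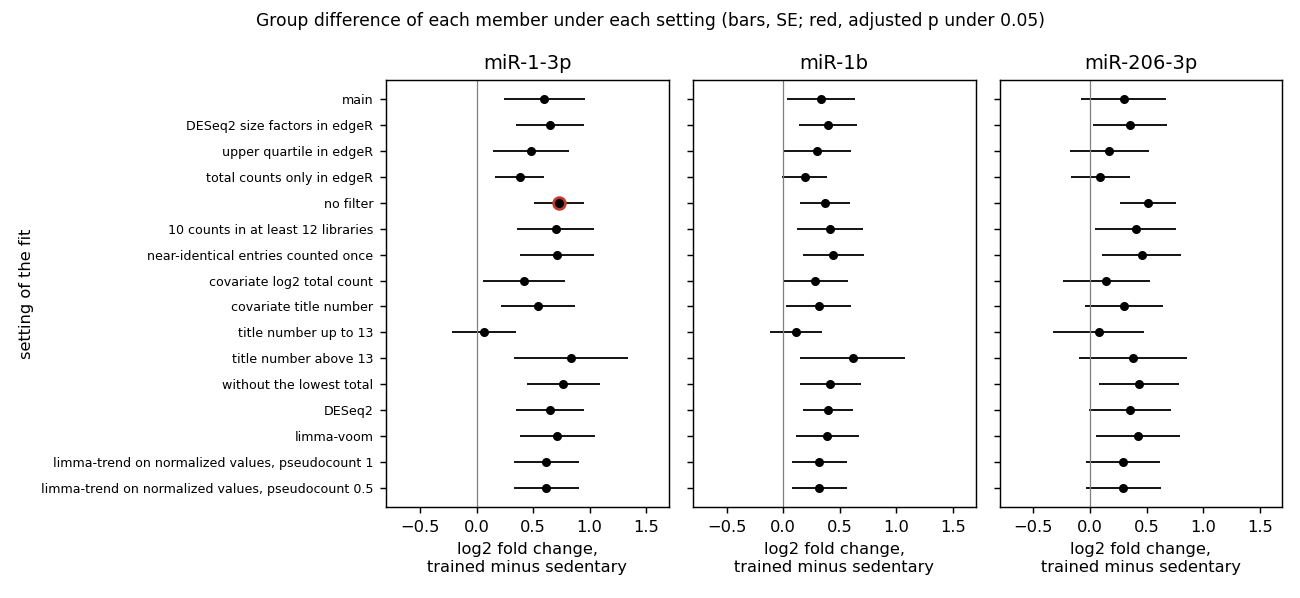
Points are log2 fold changes, trained minus sedentary, with their SE, for miR-1-3p, miR-1b and miR-206-3p under each setting of the fit, and a red ring marks an adjusted p under 0.05. All 3 members were positive in every setting shown, and 1 point has the ring, miR-1-3p without a filter at 0.73.

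Within title numbers up to 13, the share of miR-1-3p was 8.41% ± 1.23 in trained and 7.56% ± 2.71 in sedentary libraries (SD, n = 6 each, exact permutation p = 0.513). Above 13 it was 15.0% ± 2.17 in the trained and 10.8% ± 4.78 in the sedentary libraries (SD, n = 7 and 6, exact permutation p = 0.0559). With group labels permuted within the ranges, an alternative chosen after seeing the data, the difference in share of miR-1-3p was 2.64 percentage points (permutation p = 0.0426, adjusted p = 0.299). The group differences of 0.86 and 4.29 percentage points were not shown to differ from each other (permutation of labels within ranges, p = 0.187, adjusted p = 0.682). Up to 13, the log2 ratio of miR-1b over miR-1-3p was -0.15 to 0.39 in the 6 trained and -0.17 to 0.62 in the 6 sedentary libraries, a difference of means of -0.0059 (exact permutation p = 0.974). Above 13 it was -1.81 to 0.17 in the 7 trained and -1.12 to -0.040 in the 6 sedentary libraries, a difference of means of -0.50 (exact permutation p = 0.150). In both groups most of the libraries numbered above 13 had less miR-1b per miR-1-3p than those numbered up to 13. In the fit of all miRNAs the change of the group difference between ranges was 0.94 for miR-1-3p (edgeR p = 0.138, adjusted p = 0.705), 0.68 for miR-1b (edgeR adjusted p = 0.726) and 0.45 for miR-206-3p (edgeR adjusted p = 0.816).

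The other muscle-enriched miRNAs are made partly from the same loci, since miR-133a and miR-133b lie beside the miR-1 and miR-206 precursors. Of 12 listed, 6 had a count, 4 had enough counts for the test, and 0 passed, with 3 positive and 1 negative and a median log2 fold change of 0.16. The 3 positive ones all belong to the miR-133 group (miR-133a-3p, miR-133c and miR-133b-3p) and share their counts, and the negative one was miR-486, which red cells also make. miR-133a-3p had 3645 counts over all libraries, against 241423 for miR-1-3p from the neighbouring precursor, and miR-133b-3p had 3632, against 161329 for miR-206-3p. Because the miR-133 entries share their counts, reads from the miR-133a and miR-133b precursors cannot be told apart. Counts of different miRNAs are not corrected for how well each is captured in a small RNA library.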

How the data were processed

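Small RNA was sequenced from mitochondria of rat red gastrocnemius, giving 13 trained and 12 sedentary libraries. Per the labels' protocols, mitochondria were bead-isolated from about 100 mg of muscle and kept 1 h at 37 °C with RNase A (312 µg), and libraries were made with adapters at 0.3 of usual strength and 20 PCR cycles. No molecular identifiers are named, so counts are of reads. The authors deposited raw counts per mature miRNA, with empty cells read as 0. The authors also deposited a normalized signal, the raw count divided by 1 factor per library (largest relative deviation 4.86e-10). fastp 0.20.0 and DESeq2 1.36 are listed in the submitters' processing notes. The sources used here do not give the aligner, counter or build.

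Groups and numbers came from sample titles, and nothing says more of litters or cages, so p-values measure the spread between these libraries. Within groups, all 144 library pairs differed beyond sampling noise (chi-square over degrees of freedom at least 17.7). The test across miRNAs was edgeR 4.0.16 (R 4.3.3) with TMM scaling and filterByExpr (minimum count 10, minimum total 15), which kept 76 miRNAs with 96.9% to 99.0% of counts. The threshold was an adjusted p of 0.05. Shares and log2 ratios, with a pseudocount of 0.5, were tested by two-sided permutation (100000 resamples, exact for groups under 10, numpy 2.4.6, scipy 1.17.1), and the 95% intervals use the unpooled SE of the difference. A floor for a 0 is 3 counts. Tests were also run on simulated data. Entries were called near-identical where no library with at least 10 counts for the pair differed by more than 10%. Sequences and chromosomes are RefSeq's for GRCr8, where 687 of 764 entries had a mature sequence.

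The members and lists were chosen with earlier results of these data known. Named were all members, the 3 miRNAs most like each abundant member, and the other muscle-enriched list. Alternatives were DESeq2 1.42.0, limma 3.58.1 (voom, and trend on normalized values), other scalings, filters, covariates and denominators, ranges of title number, and leaving out libraries. Relations with title number, permutation within number ranges and the comparison of group differences between ranges were added after seeing the data, as was the description by numbers 1 to 10, 11 to 19 and 21 to 32.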

Additional observations from a re-analysis of the deposited data

How the results depend on the processing

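No paired analysis was possible because trained and sedentary libraries share no title number. 0 miRNAs passed in 14 of 15 other settings of the fit and in 25 of 25 without 1 library. Without a filter 66 passed, miR-1-3p and miR-3571 among them, each at 0.73. The members' log2 fold changes were positive in all these settings. The lowest value of each was among numbers up to 13 (0.067 for miR-1-3p, 0.11 for miR-1b and 0.078 for miR-206-3p). Without 1 library miR-1-3p was at 0.37 (without sedentary library 30) to 0.88 (without sedentary library 29), with adjusted p 0.238 to 0.983, miR-1b at 0.15 to 0.51 and miR-206-3p at 0.088 to 0.66, at the same 2 libraries. The unadjusted p of miR-1-3p was under 0.05 in 9 of the 15 other settings, where 3.08% to 31.5% of miRNAs had such a p, and in 9 of 25 without 1 library. The median over all miRNAs was -0.16 with DESeq2's size factors and -0.29 with total counts, against -0.0081 with TMM, and miR-1-3p was at 0.65 and 0.38. No share or ratio passed in any setting. Without 1 library the difference in share was 2.27 to 3.52 percentage points for miR-1-3p, 0.64 to 1.49 for miR-1b, -0.0050 to 1.27 for miR-206-3p and 3.63 to 6.04 for the 3 members. Counting near-identical entries once gave 3.98, 1.66, 0.93 and 6.57. The difference in log2 ratio of miR-206-3p over miR-1b was -0.17 to 0.092 without 1 library and positive in 12 of those 25, and was 0.091 above number 13, 0.028 without the lowest total and 0.21 in edgeR with the partner as offset. The other ratios were negative throughout. miR-1-3p and miR-1b had rho = 0.48 on the authors' normalized values (adjusted permutation p = 0.0516) and 0.19 on log2 percent. miR-1b and miR-206-3p had 0.19 (adjusted permutation p = 0.537) and -0.37. The cause of these shifts was not tested. Counts limit the members little, and libraries' spread sets the precision.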
